A study of Mus musculus with 15 samples.

Results

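Livers of 6 mice after Roux-en-Y gastric bypass (RYGB) were compared with livers of 5 sham-operated mice that ate ad libitum (Sham AL), which are 11 of the 15 arrays of the series. The groups were taken from the sample titles. All 22180 genes with a single symbol were compared, each through 1 transcript cluster, on the deposited log2 signals. The rest of the series, 4 sham-operated mice matched to the bypass mice in body weight (BWm), entered the estimate of the spread, the choice of cluster for genes with several, and the levels quoted near the end.

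All mice were males of the ApoE*3-Leiden.CETP strain (labelled apoE3L.CETP), 9 to 12 weeks old when the experiments began. The strain carries a human apolipoprotein E variant and the human cholesteryl ester transfer protein, so every group has the same human-like lipoprotein background, and the comparison says nothing of wild-type mice. A high-fat, high-cholesterol food (60% fat, 0.25% cholesterol) was fed during the 6 weeks before surgery, the mice were housed singly afterwards, and they were killed 20 days after the operation. Glucose and insulin tests were done on days 13 and 19, so the last test preceded death by a day in all groups. In bypass, food passes from a small gastric pouch straight into the jejunum, and the mice lose weight, so this comparison holds the effects of the operation and of the weight loss together.

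The liver takes up nutrients, bile salts and hormones from portal blood through transporters and receptors, and it makes most plasma proteins. Its transcription factors set which enzymes and exporters each hepatocyte holds. The results below are ordered by these roles, namely transporters, secreted proteins, receptors, transcription factors, signalling proteins and enzymes.

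The promoters of 4 genes are printed first because the genes, which rose after bypass, stand for these roles and because short elements of stress-response factors lie in them. Slc7a11 encodes a cystine transporter, Asns the enzyme that makes asparagine, Atf3 a stress-induced transcription factor and Abcc4 an exporter of organic anions and bile salts. Each window runs from 250 bases before to 50 after the RefSeq start (GRCm38.p6), in the gene's own direction. The windows are chr3:50443564-50443863 (minus strand) for Slc7a11, chr6:7693160-7693459 (minus) for Asns, chr1:191183284-191183583 (minus) for Atf3 and chr14:118706170-118706469 (minus, the first of its 2 listed starts) for Abcc4. Capitals mark matches, on either strand, to the E box CACGTG, the NRF2 element TGACNNNGC, the CRE core TGACGT, the sterol element TCACNCCAC, the CCAAT box CCAAT and the CARE core TGATGNAA, the last of which was added after these windows had been read.
Slc7a11: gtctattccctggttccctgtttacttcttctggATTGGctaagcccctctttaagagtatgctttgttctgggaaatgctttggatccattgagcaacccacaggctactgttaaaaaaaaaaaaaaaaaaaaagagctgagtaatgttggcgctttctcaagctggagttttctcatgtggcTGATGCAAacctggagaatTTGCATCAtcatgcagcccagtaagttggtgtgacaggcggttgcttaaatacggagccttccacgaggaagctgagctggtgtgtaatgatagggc
Asns: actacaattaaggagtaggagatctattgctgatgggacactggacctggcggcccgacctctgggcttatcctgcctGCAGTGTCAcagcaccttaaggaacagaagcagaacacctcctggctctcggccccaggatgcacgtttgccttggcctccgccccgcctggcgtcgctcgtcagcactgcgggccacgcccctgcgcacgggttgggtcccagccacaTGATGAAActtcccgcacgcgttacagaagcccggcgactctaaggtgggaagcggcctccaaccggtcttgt
Atf3: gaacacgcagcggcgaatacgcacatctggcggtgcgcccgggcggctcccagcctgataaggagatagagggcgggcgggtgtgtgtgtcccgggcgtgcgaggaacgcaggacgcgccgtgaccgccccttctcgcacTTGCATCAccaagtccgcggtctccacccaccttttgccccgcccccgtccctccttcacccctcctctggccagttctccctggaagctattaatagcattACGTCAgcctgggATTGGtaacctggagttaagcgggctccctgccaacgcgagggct
Abcc4: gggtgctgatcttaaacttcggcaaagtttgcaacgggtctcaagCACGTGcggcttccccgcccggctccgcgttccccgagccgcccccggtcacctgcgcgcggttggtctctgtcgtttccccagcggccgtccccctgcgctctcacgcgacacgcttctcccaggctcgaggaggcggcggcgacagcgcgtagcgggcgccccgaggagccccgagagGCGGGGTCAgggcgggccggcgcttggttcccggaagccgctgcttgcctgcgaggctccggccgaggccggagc

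The Slc7a11 window held 2 CARE cores facing each other, and the Asns and Atf3 windows held 1 each. The CARE core is the composite site of C/EBP and ATF proteins described in amino acid response genes. Among genes with a window, it was found in 12 of 160 genes that rose (7.5%, 95% Wilson interval 4.34 to 12.7) and in 6 of 72 genes that fell (8.33%, 3.88 to 17), beside 664 of 16918 genes in all (3.92%). Because this motif was chosen on windows of genes that rose, its share among them is no independent value. Without the 4 genes shown it was found in 9 of 156 (5.77%, 3.06 to 10.6), and the intervals of both groups then include the share of all genes. The NRF2 element was found in 33 of 160 genes that rose (20.6%, 15.1 to 27.5) and 4 of 72 that fell (5.56%, 2.18 to 13.4), beside 14.9% of all genes. For the E box these shares were 13.8% (9.26 to 19.9), 6.94% (3 to 15.2) and 9.22%. For the CRE core they were 9.38% (5.76 to 14.9), 1.39% (1 of 72, 0.246 to 7.46) and 9.86%. For the CCAAT box they were 44.4% (36.9 to 52.1), 47.2% (36.1 to 58.6) and 41.6%. For the sterol element they were 1.88% (0.64 to 5.37), 0% (0 of 72, interval 0 to 5.07) and 1.43%. A gene was counted where any of its listed windows held the motif. These shares describe letters in a window and show no binding.

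Across the liver transcriptome, the adjusted p of the limma fit was under 0.05 for 306 of 22180 genes (1.38%), which are referred to as called. Of these, 208 were higher after bypass (0.938% of all genes) and 98 lower (0.442%), with a median difference of 0 over all genes. A change of at least 2-fold was seen for 51 of the higher and 35 of the lower genes. The 6 RYGB values lay wholly outside the 5 Sham AL values for 530 genes (2.39%), 350 above them (1.58%) and 180 below (0.812%), and 227 of the called genes were among the 530. Medians of the arrays were between 3.89 and 4.02, and a gene whose mean lies under that range is dim, so its fold is uncertain. Signal over background was not measured.

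Of the 11 arrays, 1 stood apart. Sham AL replicate 4 carried adrenal and fat transcripts, with a mean level of 9.07 for the 10 measured adrenal markers against 2.91 to 3.23 on the other Sham AL arrays. For the 9 brown and white fat markers it read 8.5 against 4.87 to 5.29. Star, which brings cholesterol into mitochondria of steroid-making cells, read 10.56 on this array and 4.33 ± 0.15 (SD, n = 4) on the others. Without this array 318 genes were called (1.43%), 202 higher (0.911%) and 116 lower (0.523%). Of the 306 calls, 251 were kept, which is 82% of the calls on all arrays and 78.9% of those without it. Groups that did not overlap then numbered 823 genes (3.71%), 490 above (2.21%) and 333 below (1.5%). The 9 measured hepatocyte markers were high on all arrays, with mean levels of 11.39 to 11.61 after bypass and 11.46 to 11.63 in Sham AL, where replicate 4 had the lowest mean, and none of the 9 was called.

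**Figure D1:**
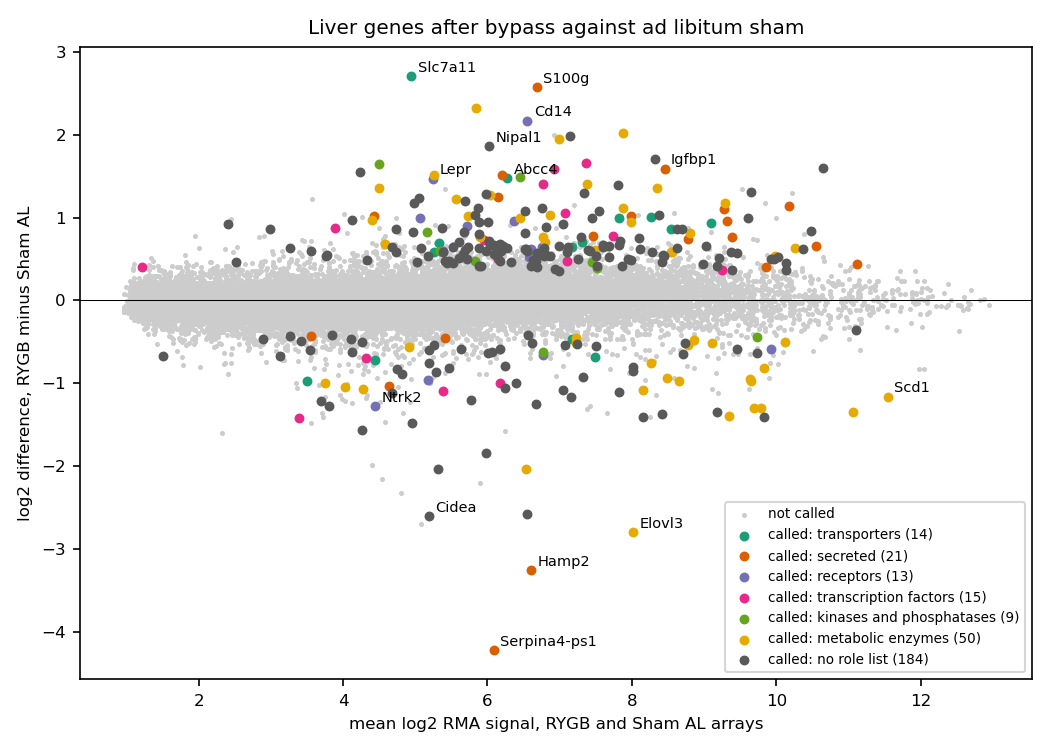
Each point is 1 of 22180 genes, with its mean log2 signal over the RYGB and Sham AL arrays on the x axis and the log2 difference, RYGB minus Sham AL, on the y axis. Grey points were not called, coloured points were called and carry the colour of their role. Called genes above 0 (208) outnumber those below (98), and Serpina4-ps1 and Hamp2 lie lowest.

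Among transporters, as among all genes, most called genes were higher after bypass. Of 521 measured transporter genes, 10 rose (1.92%, beside 0.938% of all genes) and 4 fell (0.768%, beside 0.442%), with a median difference of -0.01. When Sham AL replicate 4 was left out, 13 rose and 5 fell. Of the 245 ion channel genes, limma called 0 on all arrays and 1 without that array. At an unadjusted p under 0.05 limma gave 10 higher and 24 lower channel genes, 13.9% beside 12.9% of all genes. Over all 22180 genes it gave 1700 higher and 1171 lower, so channel genes leaned lower and all genes higher.

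Of the 22180 genes, the largest rise was that of Slc7a11, the light chain of the cystine and glutamate exchanger, whose heavy chain, Slc3a2, carries several amino acid exchangers to the cell surface. Slc7a11 read 2.9, 3.24, 3.91, 3.58 and 3.72 in Sham AL replicates 1 to 5. After bypass it read 4.29 in replicate 1 and 6.08 to 6.98 in the other 5 mice, so the groups did not overlap but 1 bypass mouse was near the sham level. The difference was log2 2.71 ± 0.35 SE (6.53-fold, adjusted p = 0.00055), from a dim sham level. Slc3a2 read 8.21, 7.72, 8.02, 8.54 and 7.92 in Sham AL and 8.52 to 9.49 after bypass (median 8.94), with an overlap at Sham AL replicate 4 alone. It rose by log2 0.86 ± 0.17 (adjusted p = 0.013; 0.05, just past the threshold, without Sham AL replicate 2). Of 46 amino acid transporter genes these were the 2 called (4.35%, beside 1.38% of all genes). Slc7a5, the light chain of the large neutral amino acid exchanger, measured log2 0.54 ± 0.23 (adjusted p = 0.33). Without Sham AL replicate 4, Slc7a5 rose as the third of the 46 (log2 0.8 ± 0.18, adjusted p = 0.026).

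Several metal and phosphate carriers rose as well. Slc39a4, a zinc importer best known from the gut, read 7.46, 7.31, 8.2, 7.78 and 7.83 in Sham AL and 8.12 to 9.18 after bypass (median 8.77). Its rise was log2 1.01 ± 0.18 (2.01-fold, adjusted p = 0.0084), and the groups overlapped through Sham AL replicate 3 and RYGB replicate 1. It was the 1 called gene of 14 Slc39 zinc carriers (7.14%, beside 1.38% of all genes). Slc20a1, a sodium-coupled phosphate carrier, read 7.11 to 7.49 in Sham AL and 7.95 to 8.69 after bypass without overlap (log2 0.99 ± 0.2, adjusted p = 0.014; 0.052 without Sham AL replicate 2). Slc41a2, a magnesium carrier, averaged 6.92 ± 0.24 (SD, n = 5) in Sham AL and 7.63 ± 0.28 (SD, n = 6) after bypass, a rise of log2 0.71 ± 0.13 (adjusted p = 0.011). Nipal1, a further magnesium transporter that the symbol patterns for the transporter list did not hold, was among the 10 largest rises. It read 4.77, 5.13, 4.86, 5 and 5.29 in Sham AL and 6.37 to 7.4 after bypass (median 6.95), which is a gap of over 1 log2 unit between the groups. Its rise was log2 1.86 ± 0.22 (3.63-fold, adjusted p = 0.00049).

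Exporters went both ways. Abcc4, which pumps bile salts and organic anions across the sinusoidal membrane, read 4.78, 4.91, 5.46, 6.05 and 6.17 in Sham AL and 6.02 to 7.68 after bypass (median 7). It rose by log2 1.48 ± 0.28 (2.78-fold, adjusted p = 0.012), and RYGB replicate 1 lay below Sham AL replicates 4 and 5. Abcg2, a canalicular exporter of drugs and urate, read 7.82, 7.92, 7.7, 7.6 and 8.25 in Sham AL and 6.77 to 7.57 after bypass (median 7.12). It fell by log2 0.68 (SE 0.16, adjusted p = 0.044), and this call was lost in 10 of the 15 fits that each left out 1 array (RYGB 3 to 6, Sham AL 1, 2, 3 and 5, BWm 1 and 4), with adjusted p reaching 0.12. Slco2a1, a prostaglandin carrier, rose by log2 0.93 ± 0.17 (adjusted p = 0.011), with Sham AL replicate 1 at 9.36 and the others at 8.28 to 8.54 against 9.03 to 9.75 after bypass. Slc37a1, a sugar-phosphate exchanger of the endoplasmic reticulum, averaged 4.95 ± 0.27 (SD, n = 5) in Sham AL and 5.64 ± 0.19 (SD, n = 6) after bypass, a rise of log2 0.69 ± 0.14 (adjusted p = 0.015).

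The other 3 transporter genes that fell were carriers of solutes. Slc15a5, of the peptide transporter family, read 3.6 to 4.52 in Sham AL and 2.75 to 3.41 after bypass, below the array medians on all bypass arrays (log2 -0.97 ± 0.17, adjusted p = 0.0076). Slc13a4, a sulfate carrier, read 5.53 in Sham AL replicate 2 and 4.5 to 4.73 in the others, against 3.95 to 4.3 after bypass. Its difference was log2 -0.72 ± 0.16 (adjusted p = 0.031), and leaving out Sham AL replicate 2 or 3 or any of RYGB replicates 2 to 6 ended the call (up to 0.071). Sfxn5, a mitochondrial carrier, fell by log2 0.47 (SE 0.1, adjusted p = 0.022; not called without mouse RYGB 2, 4 or 6 or mouse Sham AL 1, 2 or 3, up to 0.078).

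The main carriers of hepatocytes did not pass the test. Slc10a1, the sodium-coupled bile salt carrier, read 10.97 to 11.51 after bypass and 10.78 to 11.3 in Sham AL (log2 0.03 ± 0.12, adjusted p = 0.95). Slc2a2, the glucose carrier of hepatocytes, measured log2 -0.07 ± 0.14 (adjusted p = 0.89), and Abcc2, the canalicular exporter of bilirubin conjugates, 0.04 ± 0.1 (adjusted p = 0.9). Slco1b2, an organic anion carrier, measured log2 -0.31 ± 0.11 (adjusted p = 0.2).

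**Figure D2:**
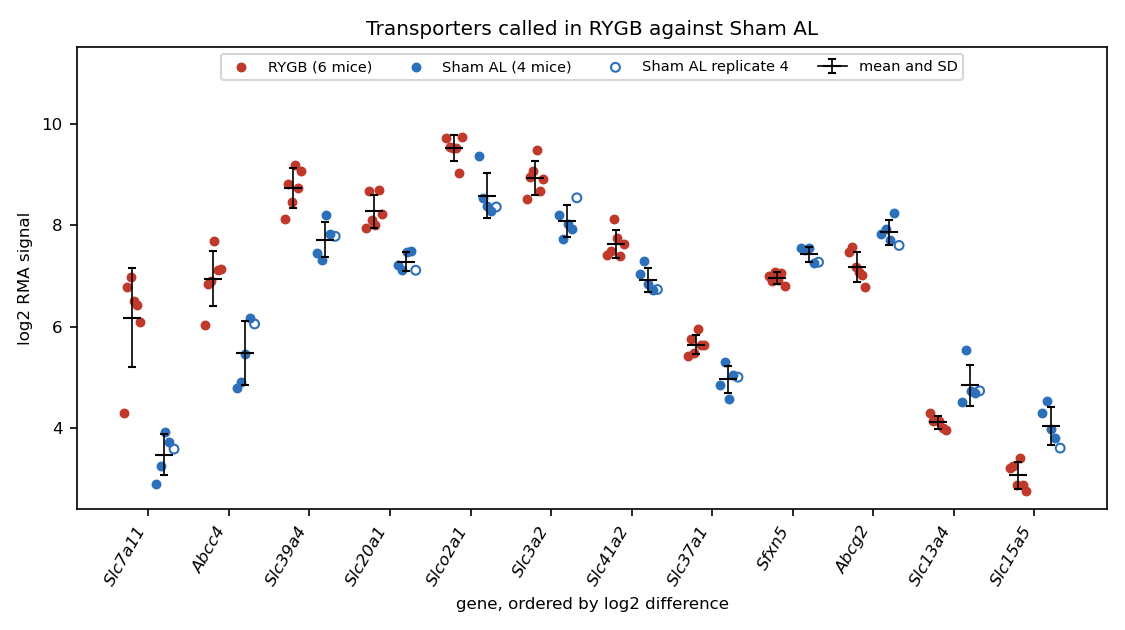
Log2 signal (y axis) of the 12 transporter genes named by rule and called (x axis), 1 point per mouse, with RYGB in red and Sham AL in blue. The open circle is Sham AL replicate 4, and the black bars are the mean and SD of each group over all its mice. Slc7a11 shows the largest difference of means, and RYGB replicate 1 at 4.29 lies apart from the other bypass mice.

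Secreted proteins and residents of the secretory pathway held the 2 steepest falls of all genes measured. Of 642 measured genes of this list, 16 rose (2.49%, beside 0.938% of all genes) and 5 fell (0.779%, beside 0.442%), with a median difference of 0. The counts were 15 and 5 once Sham AL replicate 4 was left out, and 19 genes were called in both fits.

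Several hormone and growth factor genes rose. Fgf21, an endocrine factor of nutrient stress, read 5.36, 5.27, 5.61, 5.53 and 5.1 in Sham AL and 6.15 to 7.6 after bypass (median 6.89), without overlap (log2 1.51 ± 0.23, 2.86-fold, adjusted p = 0.0022). It was the 1 called gene of 23 FGF ligands (4.35%, beside 1.38% of all genes). Nrg1, a neuregulin that activates ErbB receptors, read 5.14, 4.97, 6.05, 5.64 and 5.51 in Sham AL and 5.88 to 7.3 after bypass (median 6.8). Its rise was log2 1.25 ± 0.24 (adjusted p = 0.013, but 0.052 and not called without Sham AL replicate 2). It was the 1 called gene of 10 measured EGF-family ligands (10%, beside 1.38% of all genes). Il23a, the p19 subunit of interleukin 23, read 3.7 to 4.25 in Sham AL, a dim level (mean 3.88), and 4.43 to 5.26 after bypass. It rose by log2 1.02 ± 0.18 (adjusted p = 0.0072) and was the 1 called gene of 34 interleukin genes (2.94%, beside 1.38% of all genes). Nucb2, the precursor of nesfatin, averaged 7.43 ± 0.39 (SD, n = 5) in Sham AL and 8.45 ± 0.47 (SD, n = 6) after bypass (log2 1.02 ± 0.21, adjusted p = 0.018; 0.052 without Sham AL replicate 1).

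Binding proteins of IGF behaved unevenly within their family. Igfbp1, which binds IGF in plasma and is set by insulin, read 6.67, 7.54, 7.53, 7.75 and 8.47 in Sham AL and 8.55 to 9.53 after bypass (median 9.25). The lowest bypass mouse was just above the highest sham mouse, and the rise was log2 1.59 ± 0.27 (3.02-fold, adjusted p = 0.0043). Igfbp2 read 8.97, 8.46, 8.7, 8.46 and 8.8 in Sham AL and 9.19 to 10.23 after bypass (log2 1.1 ± 0.18, adjusted p = 0.0036). These 2 are 28.6% of the family, beside 1.38% of all genes called. The other 5 measured members of the family were not called, Igfbp3, Igfbp4, Igfbp6 and Igfbp7 at log2 -0.03 to 0.07 and Igfbp5 at -0.44 (adjusted p = 0.51).

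Apcs and Fgl1, plasma proteins made by hepatocytes, rose, as did S100g. Apcs, serum amyloid P, is a pentraxin of mouse plasma and was taken up among the 10 largest rises although the symbol patterns missed it. It read 7.03, 7.64, 7.42, 7.02 and 7.84 in Sham AL and 8.19 to 9.91 after bypass (median 9.26; log2 1.71 ± 0.28, 3.27-fold, adjusted p = 0.0035). Fgl1, a fibrinogen-like hepatocyte protein, read 9.05, 10.25, 9.5, 9.09 and 9.91 in Sham AL and 10.06 to 11.22 after bypass. It rose by log2 1.14 ± 0.24 (adjusted p = 0.023), and the call ended without mouse RYGB 3, 4 or 6 or mouse Sham AL 1 or 3 (up to 0.072). S100g, a cytosolic calcium-binding protein that the list holds through its S100 name, read 4.46, 4.75, 5.94, 5.52 and 5.74 in Sham AL and 6.99 to 8.33 after bypass (median 8.06; log2 2.57 ± 0.28, 5.93-fold, adjusted p = 0.00033). It is best known from the gut, and the 8 intestine markers had mean levels of 4.69 to 5.22 after bypass and 4.93 to 5.15 in Sham AL. Of the 8, 0 were called higher and 1 lower (12.5%, beside 0.442% of all genes).

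Of the 5 falls, 2 were far steeper than the rest. Serpina4-ps1, listed as a pseudogene of a serpin, read 9.76, 10.52, 6.72, 7.2 and 7.75 in Sham AL and 3.05 to 5.57 after bypass (median 3.77). All bypass mice were below all sham mice, and the sham mice themselves spread over almost 4 log2 units. The difference was log2 -4.22 ± 0.65 (18.6-fold, adjusted p = 0.0024), and serpins have near-identical copies whose signal the probes can mix. Hamp2, the second mouse gene for a hepcidin-type peptide, read 9, 7.83, 8.21, 8.31 and 8.53 in Sham AL and 3.6 to 6.98 after bypass (median 5.26; log2 -3.25 ± 0.42, adjusted p = 0.00062). It has a close copy, Hamp, with which it can share signal. Serpina12, the adipokine vaspin, read 4.9 to 5.36 in Sham AL and 3.14 to 4.72 after bypass (log2 -1.03 ± 0.22, adjusted p = 0.022; not called without Sham AL replicate 2 or 3, up to 0.073). Col5a3, a fibrillar collagen chain, fell by log2 0.45 (SE 0.09, adjusted p = 0.013) with bypass values from 5.16 to 5.29. A2m, a protease inhibitor, was dim in both groups (3.36 and 3.79) and fell by log2 0.43 (SE 0.1, adjusted p = 0.036). Its call ended without Sham AL replicate 2 or 3 or any of RYGB replicates 2 to 6 (up to 0.11).

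**Figure D3:**
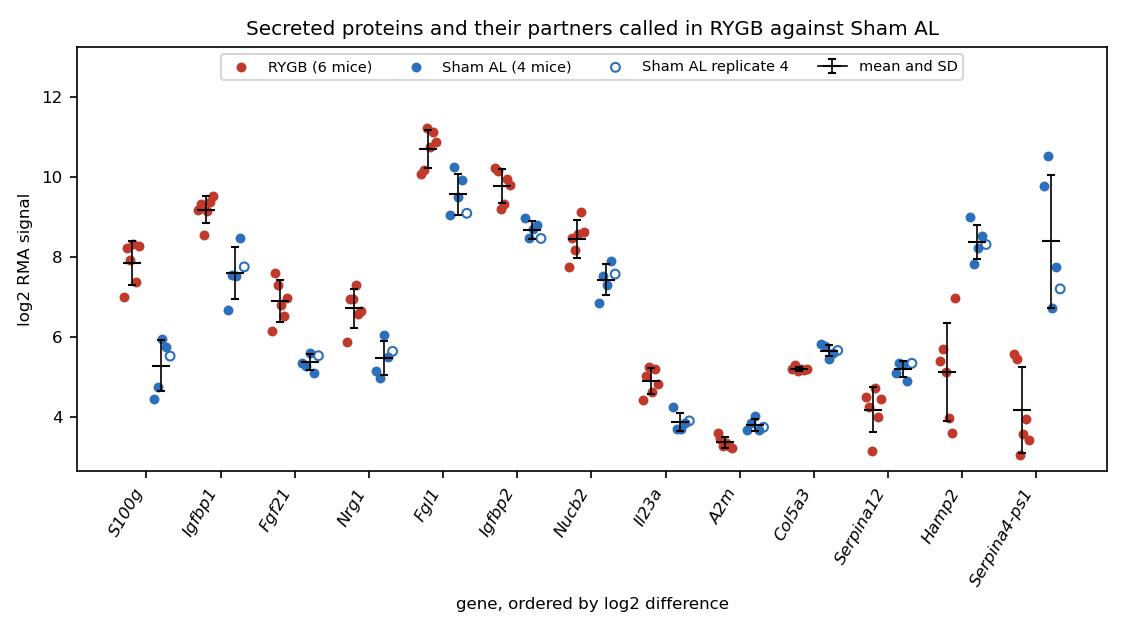
Log2 signal (y axis) of the 13 called genes of the secreted protein list that the rule named (x axis), 1 point per mouse, with RYGB in red, Sham AL in blue, an open circle for Sham AL replicate 4 and black bars for the mean and SD. Serpina4-ps1 and Hamp2, at the right, lie lower in every bypass mouse than in any sham mouse.

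Receptors and surface molecules were called about as often as other genes. Of 816 measured, 9 rose (1.1%, beside 0.938% of all genes) and 4 fell (0.49%, beside 0.442%), with a median difference of -0.02. Leaving out Sham AL replicate 4 gave 8 rises and 7 falls, with 9 genes called in both fits.

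Several cytokine and hormone receptors rose. Lepr, the leptin receptor, read 3.75, 4.36, 5.22, 4.23 and 4.68 in Sham AL and 5.36 to 6.66 after bypass (median 5.72). The gap between the groups was narrow, with Sham AL replicate 3 just under the lowest bypass mouse (log2 1.47 ± 0.27, 2.77-fold, adjusted p = 0.011). Osmr, the oncostatin M receptor, read 6.04 to 6.57 in Sham AL and 6.77 to 7.2 after bypass (log2 0.62 ± 0.15, adjusted p = 0.046), and its call ended in 10 of 15 fits without 1 array (RYGB 2 to 6, Sham AL 1, 2, 4 and 5, BWm 1), with adjusted p of 0.06 without Sham AL replicate 4 and 0.14 at most. Both belong to the receptors that signal through or like gp130. The other 4 measured ones, Il6st, Il6ra, Lifr and Cntfr, had adjusted p between 0.24 and 0.81 and were not called. The 2 are 33.3% of these 6 genes, beside 0.938% of all genes called higher. Without Sham AL replicate 4, 1 of the 6 was called, Lepr. Avpr1a, the hepatic vasopressin receptor, read 5.21, 5.27, 5.05, 5.21 and 5.36 in Sham AL and 6.47 in RYGB replicate 3 and 5.96 to 6.09 in the other bypass mice. Its rise was log2 0.9 ± 0.16 (1.87-fold, adjusted p = 0.009). Tnfrsf12a, the receptor of TWEAK, read 5.61, 5.57, 5.77, 6.41 and 5.83 in Sham AL and 6.04 to 7.23 after bypass (log2 0.96 ± 0.18, adjusted p = 0.012), with Sham AL replicate 4 the only sham mouse within the bypass range.

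Of 14 measured genes for Toll-like receptors and their partners Cd14 and Ly96, 2 rose (14.3%, beside 0.938% of all genes), Cd14 and Tlr13. Without Sham AL replicate 4, Cd14 rose and Tlr5, the flagellin receptor, fell (log2 -0.82, adjusted p = 0.013, against -0.64 and 0.12 on all arrays). Cd14, which presents lipopolysaccharide to its receptor, read 5.33, 4.87, 5.54, 5.49 and 5.62 in Sham AL and 6.14, 7.39, 6.83, 8.21, 8.56 and 8.11 in RYGB replicates 1 to 6. The groups were apart and the bypass mice spread over more than 2 log2 units (log2 2.17 ± 0.34, 4.49-fold, adjusted p = 0.0024). Tlr4, the signalling receptor for lipopolysaccharide, measured log2 -0.14 (adjusted p = 0.71). Tlr13, an endosomal sensor of bacterial RNA, read 5.55 in Sham AL replicate 3, 4.93 to 4.97 in the other sham mice and 5.33 to 6.1 after bypass (log2 0.6 ± 0.14, adjusted p = 0.047). Its call ended in 11 of 15 fits without 1 array (RYGB 1, 2, 4, 5 and 6, Sham AL 1, 2, 4 and 5, BWm 1 and 3), with adjusted p of 0.14 at most and 0.084 without Sham AL replicate 4. Cd300e, a myeloid surface receptor, rose by log2 0.99 ± 0.21 (adjusted p = 0.021; not called without mouse RYGB 4 or mouse Sham AL 2, up to 0.067). Adgre1, the macrophage antigen F4/80, rose by log2 0.64 ± 0.14 (adjusted p = 0.025). It was not called without mouse RYGB 2 or 4 or mouse Sham AL 1, 2, 4 or 5, with adjusted p reaching 0.094. The 11 Kupffer cell markers, which include Adgre1, had mean levels of 7.37 to 7.84 after bypass and 7.03 to 7.44 in Sham AL. Of the 11, 1 was called higher (9.09%, beside 0.938% of all genes) and 0 without Sham AL replicate 4. The 10 neutrophil markers had mean levels of 3.26 to 4.17 and 3.08 to 3.51, with 0 of 10 called by limma. At its unadjusted p under 0.05, 3 were higher and 0 lower (30%, beside 12.9% of all genes in either direction). Of the 22180 genes, 1700 were higher and 1171 lower at that p. The part of these cells in the rises was not tested, and in a piece of liver more cells of a type and more RNA per cell cannot be told apart.

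Other receptors fell. Ntrk2, the receptor of brain-derived neurotrophic factor, read 4.99, 5, 5.1, 5.51 and 5.08 in Sham AL and 3.36 to 4.57 after bypass (median 3.84). The difference was log2 -1.27 ± 0.19 (2.41-fold, adjusted p = 0.0018), down to a dim level (mean 3.87). Adipor2, the main hepatic adiponectin receptor, read 10.2, 10.51, 10.22, 10.04 and 10.27 in Sham AL and 9.43 to 9.84 after bypass, a small fall with no overlap (log2 -0.58 ± 0.11, adjusted p = 0.012). Cd1d1, which presents lipids to NKT cells, averaged 7.13 ± 0.17 (SD, n = 5) in Sham AL and 6.47 ± 0.14 (SD, n = 6) after bypass (log2 -0.66 ± 0.12, adjusted p = 0.009). Erbb4, a receptor of neuregulins, read 6.15, 5.5, 5.92, 5.15 and 5.79 in Sham AL and 5.59, 5.07, 4.39, 4.69, 4.26 and 4.44 in RYGB replicates 1 to 6. Its difference was log2 -0.96 ± 0.23 (adjusted p = 0.044), and 11 of 15 fits without 1 array lost the call (RYGB 2 to 6, Sham AL 1, 2, 3 and 5, BWm 3 and 4), with adjusted p reaching 0.12. Its ligand gene Nrg1 was called in the opposite direction. Sucnr1, the succinate receptor, was lower by log2 1.25 (adjusted p = 0.029) but stood outside the rule and was chosen after its value was seen.

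Of 23 regulators fixed by name 1 was called, Lepr, beside 1.38% of all genes. Insr, the insulin receptor, read 8.21 to 8.63 after bypass and 8.3 to 8.57 in Sham AL (log2 0 ± 0.09, adjusted p = 1). Ghr, the growth hormone receptor, read 8.43, 8.01, 7.84, 7.59, 7.49 and 7.33 in RYGB replicates 1 to 6 and 8.5, 8.3, 8.39, 8.01 and 8.33 in Sham AL. It measured log2 -0.52 ± 0.16 (adjusted p = 0.14; 0.098 without Sham AL replicate 4). Klb, the co-receptor of Fgf21, measured log2 0.58 ± 0.16 (adjusted p = 0.08), Gcgr, the glucagon receptor, -0.12 ± 0.1 (0.68), Egfr 0.29 ± 0.17 (0.51), Met 0.1 ± 0.13 (0.82) and Fgfr4 0.14 ± 0.13 (0.71). Igf1r measured log2 -0.28 ± 0.2 (0.6), and -0.05 without Sham AL replicate 4, on which it read 6.12 against 4.78 to 5.16 on the other Sham AL arrays.

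**Figure D4:**
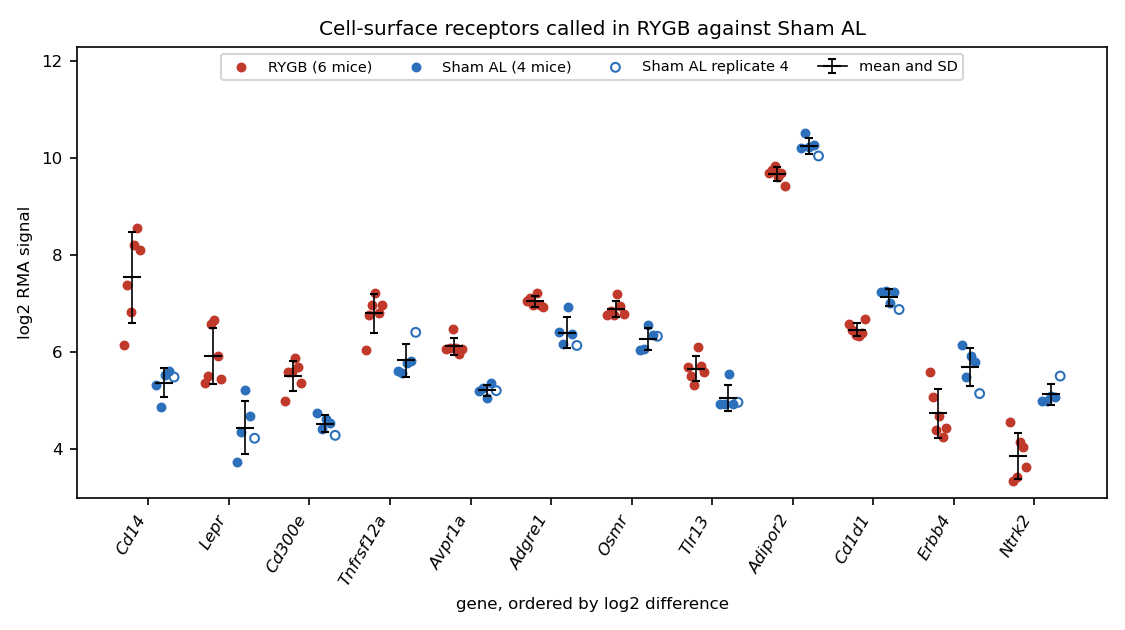
Log2 signal (y axis) of the 12 called receptor and surface genes named by rule (x axis), 1 point per mouse, with RYGB in red, Sham AL in blue, an open circle for Sham AL replicate 4 and black bars for the mean and SD. Cd14 shows the widest spread among bypass mice, from 6.14 to 8.56, and Adipor2 the highest signal.

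Transcription factors were called at close to the rate of all genes. Of 1014 measured factors and co-regulators, 11 rose (1.08%, beside 0.938%) and 4 fell (0.394%, beside 0.442%), with a median difference of 0.01. The split was 7 and 7 once Sham AL replicate 4 was left out.

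Stress-induced factors led the rises. Atf3 read 6.22, 6.02, 6.09, 7.09 and 6.86 in Sham AL and 7.43 to 8.77 after bypass (median 8.1; log2 1.66 ± 0.24, 3.17-fold, adjusted p = 0.0016). Ddit3, the factor CHOP of the stress of the endoplasmic reticulum, read 5.71, 5.69, 6, 6.15 and 6.5 in Sham AL and 6.68 to 8.63 after bypass, the highest in RYGB replicate 5 (log2 1.4 ± 0.27, adjusted p = 0.013). Nupr1, a small chromatin-associated stress protein, read 5.37, 5.58, 6.12, 6.52 and 6.73 in Sham AL and 6.7 to 8.39 after bypass. The groups overlapped by a single pair of mice, and the rise was log2 1.58 ± 0.29 (adjusted p = 0.01). Other factors of stress responses were not called. Atf4 measured log2 0.33 ± 0.11 (adjusted p = 0.19), Xbp1 0.24 ± 0.11 (0.35) and Nfe2l2, the gene of NRF2, 0.12 ± 0.12 (0.75). Protein was not measured.

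Growth-linked factors rose by less. Ets2 read 7.31, 7.27, 7.38, 7.36 and 7.3 in Sham AL, a spread of 0.04 (SD, n = 5), and 7.69 to 8.4 after bypass (log2 0.78 ± 0.13, adjusted p = 0.0034). Myc read 6.04 to 6.79 in Sham AL and 7 to 8 after bypass (log2 1.05 ± 0.25, adjusted p = 0.041), without overlap. Its call ended in 9 of 15 fits without 1 array (RYGB 2, 4, 5 and 6, any Sham AL array; 0.058 without Sham AL replicate 4), with adjusted p reaching 0.11. Mybl1, of the Myb family, averaged a dim 3.42 ± 0.43 (SD, n = 5) in Sham AL and 4.28 ± 0.24 (SD, n = 6) after bypass. Its rise was log2 0.87 ± 0.19 (adjusted p = 0.024). It was not called without mouse RYGB 2 or mouse Sham AL 1 or 5 (up to 0.073). Mafk, a small Maf partner of NRF2, measured log2 0.5 ± 0.12 (adjusted p = 0.039) and Zfp9, a zinc finger gene, 0.73 ± 0.17 (adjusted p = 0.038). Both were lost in several fits without 1 array, 10 of 15 for Mafk (RYGB 2 to 6, Sham AL 2 to 5, BWm 1; 0.052 without Sham AL replicate 4, 0.088 at most) and 8 of 15 for Zfp9 (RYGB 2 to 5, Sham AL 1, 2, 3 and 5; 0.098 at most).

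All 4 falls were zinc finger genes, 3 of them on the same chromosome. Zfp979 read 4.1, 4.34, 4.16, 4.04 and 4.17 in Sham AL and 2.26 to 3.31 after bypass (log2 -1.42 ± 0.22, adjusted p = 0.0022), below the array medians on all bypass arrays. Zfp982 read 6.23, 5.9, 6.02, 6.05 and 5.72 in Sham AL and 5.65, 4.88, 4.94, 5.07, 4.57 and 4.25 in RYGB replicates 1 to 6 (log2 -1.09 ± 0.18, adjusted p = 0.0037). Zfp992 fell by log2 1 (SE 0.21, adjusted p = 0.023; not called without mouse RYGB 3 or 6 or mouse Sham AL 1, 2, 3 or 5, up to 0.085). In the gene order of RefSeq GRCm38.p6 these 3 lie within a stretch of 41 genes, of which 10 were measured, and the 3 are all the calls in it. The stretch was cut from the first to the last of the 3. Its share of calls was set by that choice and cannot be compared with the 0.442% of all genes called lower. Such zinc finger clusters hold near-identical copies that can share probe signal. Zfp872 fell by log2 0.7 (SE 0.15, adjusted p = 0.025; not called without mouse RYGB 2, 3 or 6 or mouse Sham AL 1 or 2, up to 0.094).

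Of 44 nuclear receptors, limma called 0 with or without Sham AL replicate 4. At an unadjusted p under 0.05 it gave 5 lower and 0 higher (11.4%, beside 12.9% of all genes in either direction). Over all 22180 genes that p gave 1171 lower and 1700 higher. Ppara, the fatty acid sensor, read 8.28 to 8.95 after bypass and 8.61 to 9.02 in Sham AL (log2 -0.33 ± 0.12, adjusted p = 0.2). Nr1h4, the bile acid receptor FXR, measured log2 -0.13 ± 0.13 (0.74), Nr1i2 0.15 ± 0.16 (0.75), Nr1i3 -0.14 ± 0.19 (0.82) and Hnf4a 0.26 ± 0.15 (0.51). Srebf1, the lipogenic factor, read 9.38, 9.21, 8.98, 8.67 and 8.57 in Sham AL and 6.8 to 8.54 after bypass, apart in every mouse, but was not called (log2 -1.14 ± 0.37, adjusted p = 0.17).

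Kinases, phosphatases and their partners gave 7 rises in 453 measured genes (1.55%, beside 0.938%) and 2 falls (0.442%, as for all genes). The list was drawn by symbol, as for Cdkn2aipnl, so a member need not be a kinase, a phosphatase or their partner. Trib3, a pseudokinase that binds AKT, read 5.14, 5.37, 6.08, 5.91 and 5.72 in Sham AL and 6.6 to 7.58 after bypass (log2 1.49 ± 0.22, 2.81-fold, adjusted p = 0.002). Mtmr11, a myotubularin relative, read 3.22 to 3.93 in Sham AL and 4.39 to 5.67 after bypass. It rose from a dim sham level (mean 3.61) by log2 1.65 ± 0.21 (3.13-fold, adjusted p = 0.00052). Ppp4r4, a regulatory subunit of protein phosphatase 4, rose by log2 0.83 ± 0.14 (adjusted p = 0.0041), without overlap. Mapkapk3, a kinase downstream of p38, read 5.51 in Sham AL replicate 4 and 4.84 to 4.91 in the other sham mice, against 5.45 to 5.96 after bypass (log2 0.6 ± 0.12, adjusted p = 0.017; 0.066 without Sham AL replicate 2). Pdk1, which inhibits pyruvate dehydrogenase, read 7.16, 7.28, 7.09, 6.77 and 7.25 in Sham AL and 6.25 to 6.74 after bypass (log2 -0.62 ± 0.12, adjusted p = 0.016). Its call ended without Sham AL replicate 2 and when the clusters of the gene were averaged (up to 0.19). The smaller rises of Mtmr14, Cdk2ap2 and Cdkn2aipnl and the fall of Ppp2r5a, of log2 0.39 to 0.47 in size, were each lost in at least 8 of 15 fits without 1 array. RYGB 2, 3 and 4 and Sham AL 2 and 3 were among these arrays for all 4 genes, and Sham AL replicate 4 for Mtmr14 (0.082), Cdk2ap2 (0.096) and Ppp2r5a (0.089).

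Among the role lists, enzymes were called most often, with 26 of 764 higher (3.4%, beside 0.938%) and 24 lower (3.14%, beside 0.442%) and a median difference of -0.04. In the fit without Sham AL replicate 4 these were 28 and 27, and 42 genes were called in both fits. The 8 largest rises included 3 genes of cholesterol synthesis. Sqle, squalene epoxidase, read 4.22, 4.47, 4.4, 5.66 and 4.1 in Sham AL and 7.12, 7.43, 5.17, 6.92, 6.44 and 8.26 in RYGB replicates 1 to 6 (log2 2.32 ± 0.4, adjusted p = 0.0058). Cyp51, lanosterol demethylase, and Nsdhl, a sterol dehydrogenase, rose by log2 1.4 ± 0.29 (adjusted p = 0.018; 0.052 without Sham AL replicate 3) and 1.35 ± 0.27 (adjusted p = 0.014). In all 3 genes RYGB replicate 3 was the lowest bypass mouse. Asns read 4.76, 5.5, 5.09, 6.31 and 5.05 in Sham AL and 5.93 to 7.11 after bypass (log2 1.27 ± 0.27, adjusted p = 0.025). It was not called without mouse RYGB 3, 4 or 6 or mouse Sham AL 1, 2, 3 or 5 (up to 0.076).

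Fatty acid and oxysterol enzymes were also among these rises. Cyp4a31, a fatty acid hydroxylase with close copies, read 7.14, 6.84, 7.25, 6.24 and 6.44 in Sham AL and 7.95 to 9.75 after bypass (log2 2.02 ± 0.33, adjusted p = 0.0033). Cyp39a1, an oxysterol hydroxylase, read 6.23, 5.23, 6.01, 5.89 and 6.27 in Sham AL and 7.07 to 8.48 after bypass (log2 1.95 ± 0.29, adjusted p = 0.0017). Elovl7, an elongase, read 3.9 in RYGB replicate 1 and 5.06 to 5.71 in the other bypass mice, against a dim 2.9 to 4.41 in Sham AL (mean 3.76). Its difference was log2 1.35 ± 0.28 (adjusted p = 0.021; not called without mouse RYGB 3 or 4 or mouse Sham AL 1, 2 or 5, up to 0.062). Cbr3, a carbonyl reductase, measured log2 1.51 ± 0.37 (adjusted p = 0.049), and 12 of 15 fits without 1 array lost its call (all but RYGB 1 and Sham AL 4 and 5), with adjusted p reaching 0.14.

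The largest enzyme falls were in fatty acid and drug metabolism. Scd1, the desaturase that makes oleate, read 12.1, 12.32, 12.29, 12.17 and 11.99 in Sham AL and 10.57 to 11.49 after bypass, apart in every mouse (log2 -1.16 ± 0.14, 2.23-fold, adjusted p = 0.00049). Acaa1b, a peroxisomal thiolase, fell by log2 1.3 (SE 0.18, adjusted p = 0.0009) and Cyp3a11 by log2 1.39 (SE 0.2, adjusted p = 0.0017), both without overlap. Inmt, a methyltransferase of indole amines, read 10.63, 10.64, 10.38, 10.2 and 10.66 in Sham AL and 10.05, 9.66, 9.49, 8.3, 9.18 and 8.52 in RYGB replicates 1 to 6 (log2 -1.3 ± 0.25, adjusted p = 0.013). Ces1e, a carboxylesterase, read 8.15 to 9.28 in Sham AL and 7.44 to 8.08 after bypass (log2 -1.08 ± 0.18, adjusted p = 0.0043). Cyp2c29 fell by log2 1.35 (SE 0.28, adjusted p = 0.018; 0.059 at most and not called without Sham AL replicate 1 or 2). The Cyp, Ces and Acaa1 genes have near-identical relatives, so signals can mix copies.

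For a pair of enzymes the bypass mice differed widely. Elovl3, which lengthens saturated and monounsaturated fatty acyl chains, read 9.52, 9.8, 9.38, 9.76 and 9.25 in Sham AL. After bypass it read 9.21 and 8.79 in replicates 1 and 2 but 5.73, 6.05, 5.61 and 5.13 in replicates 3 to 6. Cyp4a12a, an arachidonic acid hydroxylase of male liver, read 7.7, 7.66, 8.01, 6.94 and 7.9 in Sham AL and 7.52, 6.26, 5.52, 5.43, 5.22 and 3.73 in RYGB replicates 1 to 6. The log2 differences were -2.79 ± 0.67 (adjusted p = 0.046) and -2.03 ± 0.48 (adjusted p = 0.045). Each call ended in 11 fits for Elovl3 and 11 for Cyp4a12a of the 15 that left out 1 array, with adjusted p reaching 0.12 and 0.11. The arrays were RYGB 3 to 6, any Sham AL and BWm 1 and 4 for Elovl3, and RYGB 2 to 6, Sham AL 1, 2, 3 and 5 and BWm 1 and 3 for Cyp4a12a. Elovl3 had an adjusted p of 0.07 in the fit without Sham AL replicate 4. This split was not confined to the pair. RYGB replicates 1 and 2 also read highest for Serpina4-ps1 (5.57 and 5.46, others 3.05 to 3.96) and Mme (8.57 and 8.32, others 6.55 to 7.46). The same held for Ces1e (8.08 and 8.01, others 7.44 to 7.54). It did not hold for Hamp2, highest in replicate 6 (6.98), or Scd1, highest in replicate 3 (11.49). RYGB replicates 1 and 2 carry the lowest animal numbers of the bypass group in the sample descriptions, 16 and 17 against 41, 81, 84 and 85, and Sham AL replicate 1 carries 20. A factor for numbers under 50 puts RYGB replicate 3, at 41, with replicates 1 and 2, so it does not follow the split seen for Elovl3. With this factor the differences were log2 -3.24 (adjusted p = 0.012) and -2.36 (adjusted p = 0.011). What the numbers stand for was not tested.

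**Figure D5:**
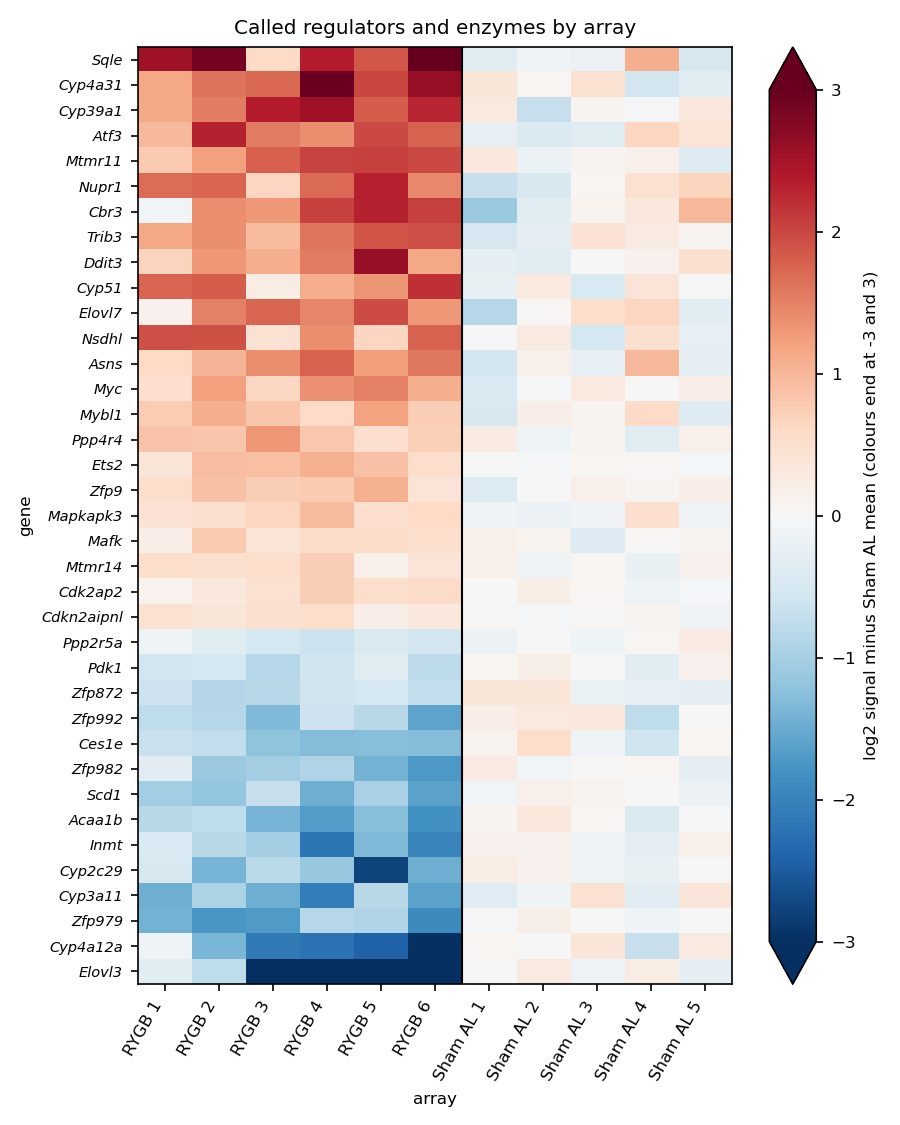
Colour gives each array's log2 signal minus the Sham AL mean for called transcription factors, kinases and phosphatases, and enzymes named by rule (rows), with the 6 RYGB arrays left of the line and the 5 Sham AL arrays right of it. Elovl3 and Cyp4a12a are near the sham level in RYGB replicate 1 and far below it in RYGB replicates 4 to 6, and Sqle is highest in RYGB replicate 6.

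Outside the role lists, proteins of lipid droplets were among the 10 largest falls. Cidea, a droplet-fusing protein of brown fat and of fatty liver, read 4.59, 7.1, 5.97, 9.61 and 5.77 in Sham AL and 3.75 to 4.36 after bypass (log2 -2.6 ± 0.56, 6.05-fold, adjusted p = 0.024). On the other arrays, Sham AL replicate 4 left out, the fall was 3.6-fold (log2 -1.85, adjusted p = 0.0032), and the call ended without mouse RYGB 2, 3, 4 or 6 or mouse Sham AL 2 (up to 0.082). Its relative Cidec read 6.63, 8.39, 8.29, 9.24 and 7.22 in Sham AL and 4.72 to 6.16 after bypass, and Plin4, a perilipin, 6.61 to 7.4 and 4.37 to 5.73. They measured log2 -2.57 ± 0.39 and -1.84 ± 0.3 on all arrays and -2.25 and -1.73 without Sham AL replicate 4. The mean level of the fat markers, which hold Cidea and Elovl3, was 4.02 to 4.78 after bypass and 4.87 to 5.29 on the 4 other Sham AL arrays. Cidea and Elovl3 were the 2 of 9 called lower (22.2%, beside 0.442% of all genes). Without Sham AL replicate 4 it was Cidea alone (beside 0.523%). Of the other members, Plin1 read 3.65 to 4.06 after bypass and 3.85 to 4.06 on these Sham AL arrays. Fabp4 read 5.32 to 7.41 and 6.45 to 8.24. The part of fat tissue in these falls was not tested.

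Mme and Themis also fell. Mme, the peptidase neprilysin, read 9.09, 8.82, 8.64, 8.73 and 9.31 in Sham AL and 8.57, 8.32, 6.55, 7.2, 7.46 and 6.95 in RYGB replicates 1 to 6 (log2 -1.41 ± 0.28, 2.66-fold, adjusted p = 0.015). Themis, a signalling protein of developing T cells, read 5.28 to 6.14 in Sham AL and 3.03 to 4.99 after bypass (log2 -1.48 ± 0.28, adjusted p = 0.011), while the 10 measured T and NK cell markers had mean levels of 3.79 to 3.94 and 3.69 to 4.01 in the same order. Sprr1a, a cornified envelope protein of stressed epithelia, rose by log2 1.98 ± 0.39 (adjusted p = 0.013; 0.052 without Sham AL replicate 2), from 5.32 to 6.77 in Sham AL to 6.8 to 9.2 after bypass.

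The 4 weight-matched sham mice give a level beside these genes, with no test drawn from them here. Lepr read 6.63 to 7.47 in BWm, Cyp39a1 7.35 to 9.05, Igfbp1 8.99 to 10.29 and Nipal1 5.78 to 7.18, all above the Sham AL range. S100g read 4.13 to 4.99, Slc7a11 2.89 to 3.41 and Cd14 4.34 to 5.33, all under the bypass range. Hamp2 read 9.06 to 9.53 in BWm, above every Sham AL array, and Cidea read 3.74 to 4.26, at the bypass level.

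Of the 82 called genes named by rule, 57 had bypass mice wholly apart from sham mice, beside 227 of all 306 called genes (74.2%) and 2.39% of all genes. Without Sham AL replicate 4, 73 of the 82 were also called, beside 251 of the 306 (82%). The 82 were chosen by call and size of difference in these same values. In 46 of the 82 the call held in each of the 15 fits without 1 array. The count of calls was lowest, at 144, without Sham AL replicate 2, and was 176 without RYGB replicate 4 and 200 without RYGB replicate 6. Genes called higher then numbered 102 without Sham AL replicate 2 and 118 without RYGB replicate 4. Genes called lower numbered 42 and 65 without Sham AL replicates 2 and 1, and 62, 58 and 61 without RYGB replicates 3, 4 and 6.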

How the data were processed

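Liver RNA of 15 mice was read on as many Mouse Gene 2.0 ST microarrays (Affymetrix). The authors summarised all arrays by RMA with Expression Console (version 1.4.1.46), as the series' design text and the submitters' processing notes say, and deposited log2 signals for 41345 transcript clusters. Precision is limited by how many arrays there are. The annotation version and build are not given in those sources, and scanner files were not used here.

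The probe table gave 1 symbol to 23521 clusters, several to 1814 and none to 16010. Clusters with 1 symbol were kept, and for 1082 genes with several clusters the brightest over all arrays was taken, without a filter on dim genes. The contrast of RYGB with Sham AL was taken from a limma 3.58.1 fit (R 4.3.3; lmFit and eBayes, defaults) over all 15 arrays with 1 mean per group (residual degrees of freedom 12, prior 5.85). Tests were two-sided, with Benjamini-Hochberg adjustment over 22180 genes at 0.05. Differences are given with standard errors, and their median was 0.127. Alternatives were each array left out, other normalizations, filters and variance priors, array weights, the replicate block and a factor for animal number. A one-way ANOVA of the RYGB and Sham AL arrays alone was also run. Scripts were tested on simulated data.

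Role lists were symbol patterns, with no test of a list. Named genes were the 10 largest called rises and 10 largest called falls, up to 8 of each per role list and the regulators fixed by name, with predicted genes, olfactory and vomeronasal receptors, Mup, Mir and Snor genes left out. Of the marker lists, those of cells that a result touches are quoted. Members and lists were chosen with earlier results of these data known. Python 3.11.15, pandas 2.3.3 and matplotlib 3.10.9 made tables and figures. Promoters are RefSeq GRCm38.p6 windows, present for 16918 genes tested. Intervals cover counting error only.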

Additional observations from a re-analysis of the deposited data

Results flagged for a closer look

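Each named gene and marker list was checked within the RYGB and within the Sham AL arrays for a mouse far from the rest by Dixon's ratio. Of 238 groups of values, 22 held such a mouse (9.24%). For independent, normally spread groups chance flags about 1 in 20. These groups share arrays, and Sham AL replicate 4 was known beforehand to stand apart, so the share cannot be judged against that rate. The mouse was Sham AL replicate 4 in 7 of them.

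Sham AL replicate 4 stood apart for the adrenal markers (mean level 9.07, others 2.91 to 3.23), the fat markers (8.5, others 4.87 to 5.29), Sqle (5.66, others 4.1 to 4.47), Ntrk2 (5.51, others 4.99 to 5.1), Mapkapk3 (5.51, others 4.84 to 4.91), Igf1r (6.12, others 4.78 to 5.16) and Slc2a2 (10.48, others 11.01 to 11.12). RYGB replicate 1 was low for Slc7a11 (4.29, others 6.08 to 6.98), Elovl7 (3.9, others 5.06 to 5.71) and Atf4 (7.45, others 7.66 to 7.77). RYGB replicate 5 was low for Slco2a1 (9.03, others 9.52 to 9.75) and Hnf4a (9.92, others 10.26 to 10.45). RYGB replicate 6 was low for Nfe2l2 (8.27, others 8.67 to 8.82) and for the sinusoidal endothelial markers (7.4, others 7.84 to 7.95). RYGB replicate 2 was high for Col5a3 (5.29, others 5.16 to 5.21) and RYGB replicate 3 for Avpr1a (6.47, others 5.96 to 6.09).

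Sham AL replicate 1 was high for Slco2a1 (9.36, others 8.28 to 8.54) and Cebpa (9.43, others 9.11 to 9.19). Sham AL replicate 2 was high for Slc13a4 (5.53, others 4.5 to 4.73). Sham AL replicate 3 was high for Tlr13 (5.55, others 4.93 to 4.97) and low for Mafk (5.47, others 5.91 to 6.03) and Atf4 (7.02, others 7.35 to 7.47).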

How the results depend on the processing

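Counts of called genes are given in total, higher and lower. The total moved by over 1.5 times with a filter to genes over log2 5 on 4 arrays (471, 349 and 122). The same held at an adjusted p of 0.1 (522, 360 and 162) or 0.01 (88, 59 and 29). It also held in a one-way ANOVA of the RYGB and Sham AL arrays alone, at an adjusted p of 0.05 and 1.5-fold (34, 22 and 12). Unadjusted, this ANOVA gave 370, 227 and 143. The series' design text describes an ANOVA over all groups, so these are not the authors' counts. In the ANOVA run here, without a fold limit, 0 channel genes, nuclear receptors and neutrophil markers passed after adjustment and 28, 5 and 1 before it. With the replicate block the counts of called genes were 174, 118 and 56. Same-numbered mice share only a number (correlations of deviations -0.037 to 0.13, 1 of 5 pairs best with its own number). Leaving out 1 array gave 144 to 398 genes, 102 to 280 higher and 42 to 118 lower. Groups did not overlap for 823 genes without Sham AL replicate 4 (3.71%), where fewer arrays make this easier.

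No called gene named by rule changed direction in any of the 26 limma refits that gave it a value. Of the 82, 75 had a value in every refit and 40 of these were called in all of them, at an adjusted p of 0.05. The other 7 have no value under the filter on dim genes. The ANOVA and other thresholds are not counted here. The replicate block ended 29 of the calls, for 3 genes as the only refit to do so (Mme 0.056, Col5a3 0.058 and Slc37a1 0.053). Uncalled genes near 0 changed sign. Insr measured -0.04 with quantile normalization, -0.03 with array weights, -0.02 with the replicate block and -0.05 to 0.06 without 1 array. Slc10a1 measured -0.01 with quantile normalization and -0.01 with a factor for animal number (under 50 or over 60), and -0.05 to 0.07 without 1 array. Abcc2 measured -0.01 to 0.1 without 1 array. The causes were not tested.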

Other observations

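Families outside the role lists were looked at after their values were seen, so their counts are descriptions. Of 18 measured cytosolic aminoacyl-tRNA synthetases, which charge tRNAs for translation, 6 rose (33.3%, beside 0.938% of all genes) and 0 fell, with a median of log2 0.28. They were Gars (log2 0.62), Sars (0.55), Iars (0.54), Vars (0.48), Nars (0.41) and Qars (0.41), and 4 of the family were called without Sham AL replicate 4. Of 67 ribosomal protein genes and paralogs, 6 rose (8.96%, beside 0.938% of all genes) and 0 fell (median log2 0.24), led by Rpl3 (log2 0.61) and Rpsa (0.57). Small nucleolar RNA host genes rose in 4 of 16 cases (25%, beside 0.938%), with Snhg6 at log2 1 (adjusted p = 0.00033), Zfas1 at 0.8, Snhg1 at 0.64 and Snhg12 at 0.59. Without Sham AL replicate 4, 3 were called.

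Of 18 carboxylesterases, enzymes that split esters of drugs and lipids, 5 fell (27.8%) and 0 rose with and without Sham AL replicate 4, beside 0.442% and 0.523% of all genes lower in these fits, namely Ces1e, Ces2a, Ces1d, Ces1f and Ces2e (log2 -0.75 to -1.08), though close copies can share signal. Plpp2, a phosphatase of lipid phosphates, rose by log2 1.29 (adjusted p = 0.00033) and its relative Plpp5 by 0.86 (adjusted p = 0.0037), the 2 called of 7 (28.6%, beside 1.38% of all genes). Among 30 tight junction genes, Marveld2 (tricellulin, log2 0.67, adjusted p = 0.0016) and Ocln (occludin, log2 0.53, adjusted p = 0.022) rose (6.67%, beside 0.938% of all genes), and no claudin was called.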
